A study of Mus musculus with 8 samples.

Results

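The genes described here are 10 brakes on cytokine signaling, namely the suppressors of cytokine signaling Socs1 to Socs7, their relative Cish, the SUMO ligase Pias1 and the phosphatase Ptpn2. They were taken by symbol from a table of 34478 genes, in which all 10 are listed, and all 10 were among the 15888 genes tested, whose normalized count averaged 10 or more over the libraries. RNA had been sequenced from 4 primary cell lines of murine pancreatic ductal adenocarcinoma, numbered #1, #3, #5 and #10. The lines had grown out of tumors of mice with alleles that include Ptf1awt/Cre and Trp53loxP/loxP, and control and treated cells share the whole genotype. In this model a Cre recombinase expressed from the Ptf1a locus deletes Trp53 in pancreatic cells. Each line gave 1 library with the solvent DMSO and 1 library after 48 h with the MEK inhibitor trametinib at the IC50 of that line, so the dose was set line by line and no line has a replicate of its own. The p-values below measure the spread between the 4 lines.

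Cytokines such as interleukins and interferons bind receptors that carry JAK kinases, and the JAKs phosphorylate STAT factors, which enter the nucleus and switch on target genes. SOCS1, SOCS2, SOCS3 and CIS, the product of Cish, are among those targets and close a negative feedback loop. The SH2 domain of SOCS proteins and CIS binds phosphorylated receptors or JAKs, and their SOCS box recruits elongins and cullin 5 to mark the bound protein for degradation. SOCS1 and SOCS3 also block JAK activity directly. PIAS1 restrains STATs in the nucleus, and PTPN2 removes phosphate from JAK1, JAK3 and STAT3.

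Promoter sequence was at hand in RefSeq (build GRCm38.p6) for 5 of the 10 genes, namely Cish, Socs1, Socs3, Socs4 and Pias1, as windows of 250 bases before to 50 bases after the annotated start. The windows of Cish and Socs3 are shown because they hold the STAT motif TTCNNNGAA, in capitals, and that of Socs1 because it holds the ETS core CCGGAA on either strand, in capitals. Cish lies on the plus strand (chr9:107296409-107296708), and Socs3 (chr11:117969317-117969616) and Socs1 (chr16:10785487-10785786) on the minus strand. Each sequence reads 5′ to 3′ along its gene. The start is that of RefSeq, which for Cish and Socs3 lies inside the wider gene span of GENCODE.
Cish: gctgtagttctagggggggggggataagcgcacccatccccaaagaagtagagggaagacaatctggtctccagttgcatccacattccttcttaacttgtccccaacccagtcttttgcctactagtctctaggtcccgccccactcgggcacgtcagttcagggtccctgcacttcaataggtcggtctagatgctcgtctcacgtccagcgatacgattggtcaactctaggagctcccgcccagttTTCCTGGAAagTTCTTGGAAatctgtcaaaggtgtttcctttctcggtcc
Socs3: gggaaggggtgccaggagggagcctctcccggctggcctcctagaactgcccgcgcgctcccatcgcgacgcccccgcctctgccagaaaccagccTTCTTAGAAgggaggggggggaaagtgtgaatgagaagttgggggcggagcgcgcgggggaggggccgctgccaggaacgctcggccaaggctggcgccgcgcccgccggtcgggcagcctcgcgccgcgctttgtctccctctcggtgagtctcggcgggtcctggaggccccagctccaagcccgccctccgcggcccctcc
Socs1: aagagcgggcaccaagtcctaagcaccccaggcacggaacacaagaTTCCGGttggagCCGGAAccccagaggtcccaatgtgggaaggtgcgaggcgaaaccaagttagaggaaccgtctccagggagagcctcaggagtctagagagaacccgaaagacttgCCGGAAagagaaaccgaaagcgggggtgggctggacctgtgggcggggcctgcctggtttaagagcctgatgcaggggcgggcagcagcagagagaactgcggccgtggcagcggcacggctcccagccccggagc

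The Cish window held 2 STAT motifs, at the RefSeq start and 11 bases after it, and the first of them also matched the stricter form TTCCNGGAA, which is contained in the wider one. The Socs3 window held 1 STAT motif, which began 154 bases before the start. Of 32851 promoter windows searched in the same way on both strands, 8.30% held at least 1 STAT motif, 0.457% held at least 2 and 1.15% held the stricter form. The Socs1 window held 3 ETS cores, 204, 192 and 86 bases before the start, and no STAT motif. At least 1 ETS core stood in 14.9% of all windows, and at least 3 in 0.852%. The AP-1 motif TGANTCA (7.81% of all windows), the cyclic AMP response element TGACGTCA (1.79%) and the E-box CACGTG (7.15%) were in none of the 5 windows. A match describes the letters of the window, and whether a factor bound there was not measured.

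Library totals were 33385300 to 36385700 normalized counts with DMSO and 30680100 to 33063300 with trametinib. Every trametinib total thus lay below every DMSO total. The step between low values put the depth at about 29331500 to 45952700 reads per library, and 3 reads correspond to 2.33 to 3.72 normalized counts. Trametinib lowered 3 targets of MEK signaling in the same fit, with log2 fold changes of -2.51 for Dusp6, -3.61 for Spry4 and -5.92 for Etv4 and adjusted p of at most 0.00021 in limma. Of 9 ductal and epithelial markers, 8 passed the filter, and Epcam was at 10.4 normalized counts or less. Their summed level was 222249 to 350408 normalized counts with DMSO and 114727 to 223801 with trametinib. The sum of 11 leukocyte markers was 163 to 254 and 249 to 520.1, with the pan-leukocyte marker Ptprc at 4.05 to 17.2 in every library. Cd68, at 135 to 188 with DMSO and 130 to 228 with trametinib, made up most of the leukocyte sum with DMSO. Csf1r, at 340 with trametinib in line #10, made up most of the highest leukocyte sum, and 7 of the 11 markers averaged under 10. The sum of 12 fibroblast and stellate cell markers was 96.9 to 371 and 447 to 1269, and that of 6 endothelial markers was 38.1 to 82.9 and 75.5 to 1779. Single genes carried these 2 sums. Col1a1, at 360 to 1110, made up most of the fibroblast sum with trametinib. Tek and Vwf, at 805 and 948 in line #3, made up most of the highest endothelial sum. Of the markers tested, Csf1r was called higher among 4 for leukocytes, Col1a1 among 5 for fibroblasts, and Tek and Vwf among 4 for endothelium, where 27.3% of all genes tested were called higher. Tek passed the filter only through its trametinib libraries. With DMSO it was at 21.5 normalized counts or less, and under the level of 3 reads in lines #5 and #10. Csf1r was under that level with DMSO in line #3. Lum was at 0 in every library. The part of these shifts in the results below was not tested, and in bulk RNA fewer cells of a type and less RNA per cell cannot be told apart.

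With trametinib, Cish rose about 4-fold and Pias1 by a smaller step, while Socs1, Socs3, Socs5, Socs6 and Ptpn2 fell. Socs1 fell most, about 5-fold, and Socs3, Socs5, Socs6 and Ptpn2 each fell to between 0.548 and 0.620 of their DMSO level. Socs2, Socs4 and Socs7 did not pass the test. Genes were tested with limma on log2(normalized count + 1), a scale that understates the change of low genes, blocked by cell line, and p-values were adjusted by Benjamini-Hochberg across the 15888 genes. Thus 2 of the 10 brakes were called higher, where 27.3% of all genes tested were, and 5 were called lower, where 25.6% were. The trametinib libraries all lay above the DMSO libraries for 1 of the 10, Cish, and for 15.1% of all genes tested. They all lay below for 4 of the 10, Socs1, Socs5, Socs6 and Ptpn2, and for 16.2% of all genes tested. The median log2 fold change was -0.52 over the 10 brakes and 0.07 over all genes tested. Rescaling the libraries to equal totals moved the median of all genes by 0.13 and quantile normalization moved it by -0.10, and the 5 brakes called lower and Cish kept their calls under both.

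**Figure D1:**
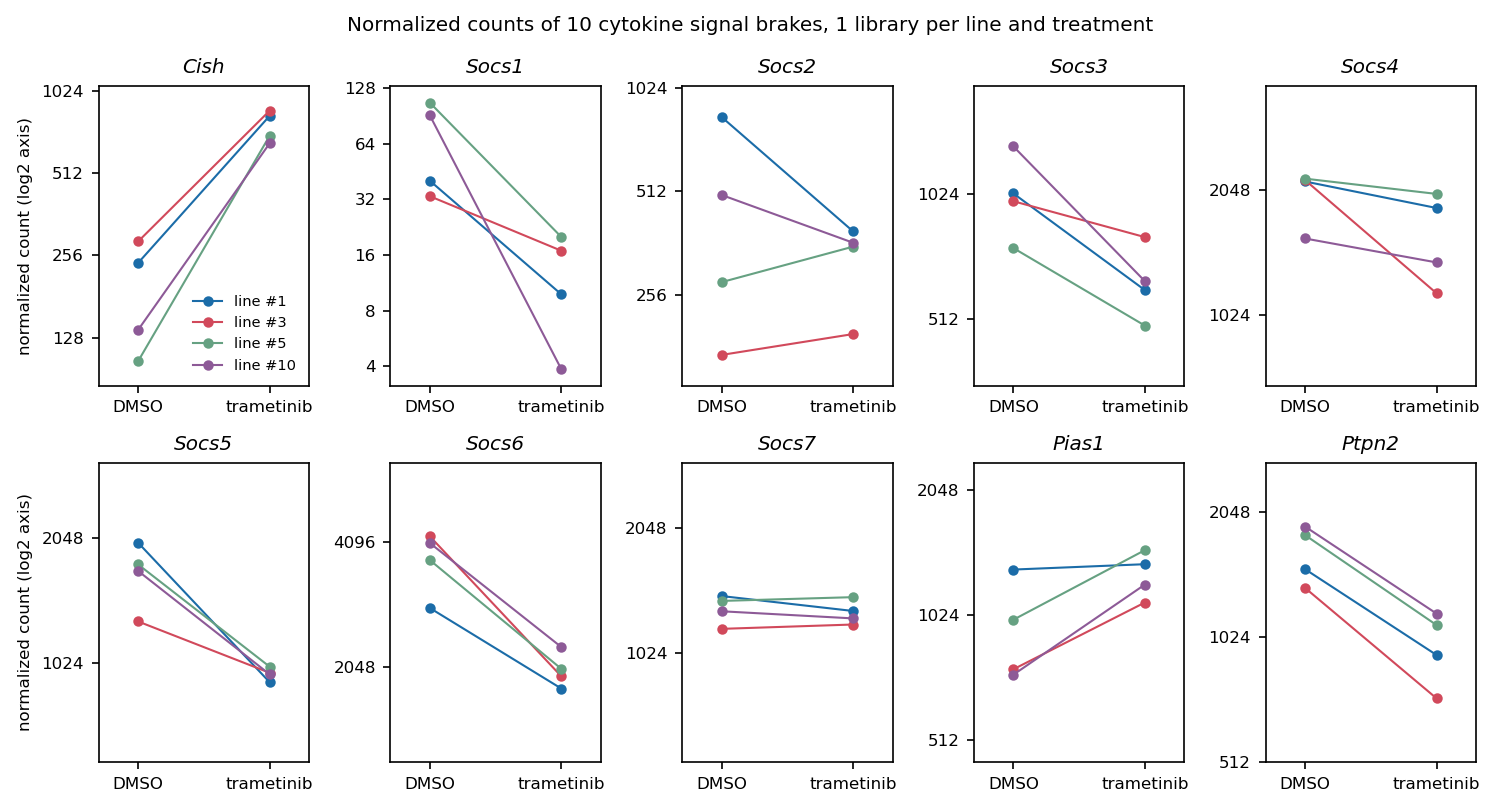
Normalized counts (log2 axis, a separate range for each gene) of the 10 brakes in DMSO and trametinib libraries, with a line joining the 2 libraries of each cell line. Cish rose in 4 of 4 lines to 658 or more, Socs1 fell in 4 of 4 lines to 20.01 or less, and Socs2 was lower in lines #1 and #10 and higher in lines #3 and #5.

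Cish lies on chromosome 9 from 107296026 to 107302784 of GRCm38 and encodes CIS, which restrains signaling through STAT5. Its normalized counts with DMSO were 240.4, 288, 105 and 137 in lines #1, #3, #5 and #10, and with trametinib they were 828, 865, 700.1 and 658. Every trametinib library thus stood above every DMSO library, and lines #5 and #10, which started lowest, gained most on the log2 scale. The log2 fold change was 2.09 (SE 0.21, 95% interval 1.597 to 2.58, adjusted p = 0.00055 in limma), and the values of single lines were 1.78, 1.58, 2.72 and 2.26. Only 4.41% of all genes tested had a log2 fold change as high. The lines also came closer together, with an SD of the log2 values of 0.68 with DMSO and 0.19 with trametinib (n = 4 lines). In GENCODE M21, 11.5% of the exon bases of Cish overlap exons of the antisense genes Gm17040 and Gm17041. Gm17040 stood at 4.15 normalized counts or less in every library, and Gm17041 was not analysed here.

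Socs1, on chromosome 16 from 10782240 to 10785536, encodes the main brake on interferon gamma signaling. In lines #1, #3, #5 and #10 it had 40.3, 33.3, 107 and 91.1 normalized counts under DMSO, which became 9.79, 16.9, 20.01 and 3.85 under trametinib. The groups did not overlap, and the smallest gap was that of line #3, from 33.3 to 16.9. The trametinib values correspond to about 10, 18, 25 and 4 reads, so that line #10 lay just above the level of 3 reads. Over the lines Socs1 had a log2 fold change of -2.37 (SE 0.53, 95% interval -3.63 to -1.11, adjusted p = 0.0091 in limma), a 5.17-fold lower level on this scale. Line #10 fell by 4.25 and line #3 by 0.94 on the log2 scale, the widest spread of the 10 genes (SD 1.39, n = 4 lines). Without line #10 the level was 3.35-fold lower (log2 fold change -1.75, adjusted p = 0.019 in limma).

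Socs3, on chromosome 11 from 117966079 to 117970047, is induced by STAT3 and inhibits receptors that contain gp130. Its normalized counts in lines #1, #3, #5 and #10 were 1029, 985, 759.8 and 1335 under DMSO, against 602, 807, 494 and 632 under trametinib. Each line fell, but the trametinib library of line #3 lay above the DMSO library of line #5, so the groups overlapped. Socs3 changed by -0.69 on the log2 scale (SE 0.14, adjusted p = 0.0070 in limma), from -1.08 in line #10 to -0.29 in line #3. Lines #3 and #10 thus bounded the fall of Socs3 and of Socs1 alike, with line #3 the smallest and line #10 the largest in each.

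Socs2, on chromosome 10 from 95385362 to 95417180, restrains growth hormone receptor signaling and, like Cish, is induced by STAT5. Its normalized counts were 844, 171, 279 and 500.1 with DMSO in lines #1, #3, #5 and #10, and 392, 197, 354 and 363 with trametinib. The lines with the higher DMSO values, #1 and #10, were lower with trametinib, and the lines with the lower values, #3 and #5, were higher. The highest line stood 4.94-fold above the lowest with DMSO and 1.99-fold with trametinib. Over the lines the change was -0.26 on the log2 scale, with a wide 95% interval of -0.85 to 0.34 (SE 0.25, adjusted p = 0.42 in limma). Without line #1 it was 0.03.

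Products of the other SOCS genes act on receptor tyrosine kinases and insulin signaling as well. Socs6, which can bind KIT, lies on chromosome 18 from 88665224 to 88927481 and went from 2835, 4219, 3698 and 4065 normalized counts in lines #1, #3, #5 and #10 to 1813, 1941, 2023 and 2283. Its log2 fold change was -0.87 (SE 0.10, adjusted p = 0.00085 in limma), with single lines between -1.12 and -0.64. Socs5, on chromosome 17 from 87107679 to 87137839, restrains interleukin-4 and EGF receptor signaling. It went from 1997, 1290.3, 1770.2 and 1707 to 921, 971, 1004 and 963 in the same order of lines, so that the trametinib libraries came to lie within 1.09-fold of each other. Socs5 thus changed by -0.79 on the log2 scale (SE 0.13, adjusted p = 0.0025 in limma). In both genes every trametinib library was below every DMSO library.

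Socs4, on chromosome 14 from 47276931 to 47296102, can bind the EGF receptor. In the same order of lines, DMSO gave 2151, 2168, 2185 and 1568 normalized counts and trametinib gave 1857, 1157, 2008 and 1373. The value was lower in 4 of 4 lines, but by much more in line #3, where the log2 fold change was -0.91, than in the other lines, where it was -0.21 to -0.12. Over the lines it was -0.36 (SE 0.15, 95% interval -0.71 to -0.01) and did not pass after adjustment (adjusted p = 0.078 in limma). With each library centred on its median, it passed (adjusted p = 0.027 in limma). Socs7, on chromosome 11 from 97362551 to 97398542, was the steadiest of the 10, at 1173 to 1407 normalized counts with DMSO and 1201 to 1398 with trametinib. Its log2 fold change was -0.03, with a 95% interval of -0.23 to 0.18 (adjusted p = 0.80 in limma).

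**Figure D2:**
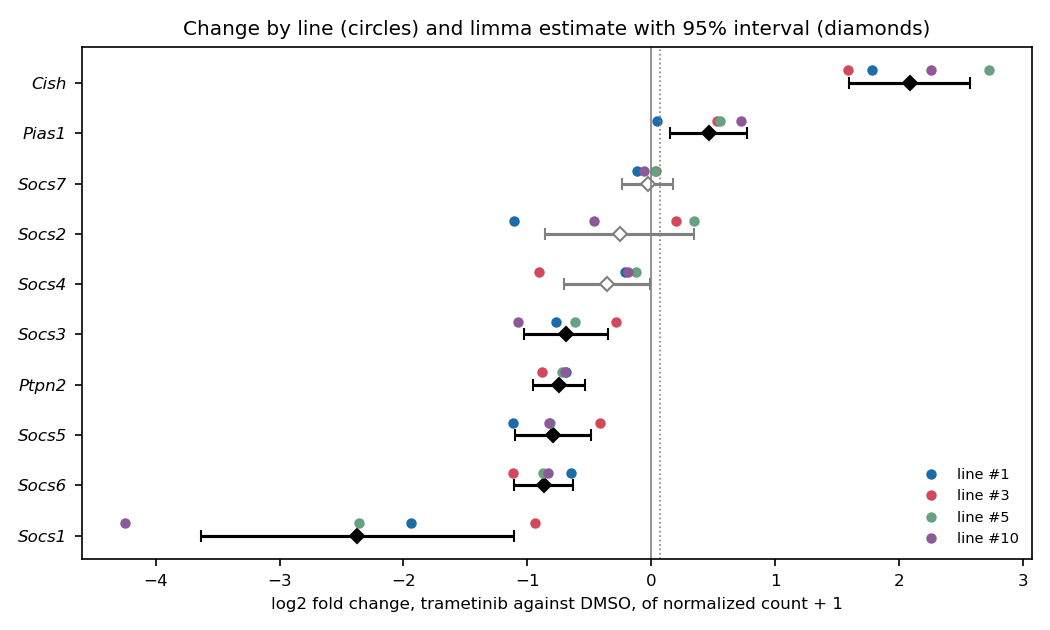
Log2 fold changes of the 10 brakes with trametinib for single lines (colored circles) and over the 4 lines (diamonds with the 95% interval of limma, filled at an adjusted p under 0.05). The dotted line marks the median of all genes tested, 0.07, and Cish and Socs1 lie farthest to either side, at 2.09 and -2.37.

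Ptpn2 and Pias1 act by other means than a SOCS box, and they went opposite ways. Ptpn2, on chromosome 18 from 67665511 to 67724595, encodes a phosphatase that switches off JAKs and STATs. It went from 1488, 1341, 1798 and 1885 normalized counts in lines #1, #3, #5 and #10 to 925, 727, 1092 and 1163. Ptpn2 fell in 4 of 4 lines and most in line #3, with log2 fold changes of -0.69, -0.88, -0.72 and -0.70 and an estimate of -0.75 (SE 0.09, adjusted p = 0.00095 in limma). Pias1, on chromosome 9 from 62878368 to 62987924, went from 1319, 759, 998 and 736 to 1359, 1099, 1469 and 1213. Lines #3, #5 and #10 gained between 1.45- and 1.65-fold, whereas line #1, already the highest with DMSO, gained 1.03-fold. Over the lines Pias1 rose by 0.46 on the log2 scale (SE 0.13, adjusted p = 0.022 in limma). This call was lost without the block for the cell line (adjusted p = 0.13), and also without line #5 (0.084) or without line #10 (0.097).

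Levels of different genes were compared as normalized counts per kilobase of annotated exon. With DMSO, Ptpn2 was highest at 521 ± 81.9 (SD, n = 4 lines), followed by Socs3 at 355 ± 81.9, Socs6 at 326 ± 54.6, Socs4 at 293 ± 43.7, Socs5 at 264 ± 45.9, Socs7 at 180.4 ± 14.2 and Pias1 at 139.5 ± 39.7. Well below these stood Socs2 at 47.04 ± 31.2, Cish at 30.0 ± 13.4 and Socs1 at 23.3 ± 12.6. The ranges of neighbors in this order were apart only between Socs5 and Socs7 and between Pias1 and Socs2. An exact two-sided sign-flip permutation test over 4 lines cannot give a p below 0.125, a value reached between Ptpn2 and Socs3, Socs5 and Socs7, Socs7 and Pias1, and Pias1 and Socs2, and the other neighbors gave 0.625. With trametinib, Cish reached 119 ± 15.5 per kilobase and stood above Socs2, at 34.2 ± 9.22, in 4 of 4 lines, and Socs1 was left at 4.34 ± 2.49. Per length of the longest transcript, Socs6 rather than Ptpn2 was highest with DMSO, at 614 against 610.5, while Socs2, Cish and Socs1 were again the 3 lowest. On that scale Socs2 stood at 105.7 with DMSO and 76.9 with trametinib, and Cish at 41.0 and 162.4.

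Within each library, the 8 genes of the SOCS family summed to 1519 ± 71.6 normalized counts per kilobase with DMSO and 1114 ± 29.0 with trametinib (SD, n = 4 lines), and the sum was lower with trametinib in every line. Cish made up 1.98 ± 0.91% of this sum with DMSO and 10.7 ± 1.40% with trametinib, and its share rose in 4 of 4 lines. The share of Socs1 went from 1.54 ± 0.85% to 0.387 ± 0.22%, and that of Socs2 from 3.05 ± 1.94% to 3.07 ± 0.81%. Per kilobase, Cish stood between 0.446 and 3.92 times the level of Socs1 with DMSO and between 15.9 and 77.4 times with trametinib. The highest ratio is that of line #10, where Socs1 rests on about 4 reads, and the next is 38.3. Against Socs2, which is also induced by STAT5, Cish was lower with DMSO in lines #1, #5 and #10 and higher in all 4 lines with trametinib, at 2.69 to 6.53 times its level. Per length of the longest transcript, an alternative chosen after seeing the data, Cish stood at 1.64 to 3.97 times Socs2 with trametinib and again below it in lines #1, #5 and #10 with DMSO. On that scale the share of Cish was 2.03% with DMSO and 11.2% with trametinib, that of Socs2 was 5.13% and 5.296%, and Cish stood at 21.7 to 52.4 times Socs1 with trametinib in lines #1, #3 and #5.

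**Figure D3:**
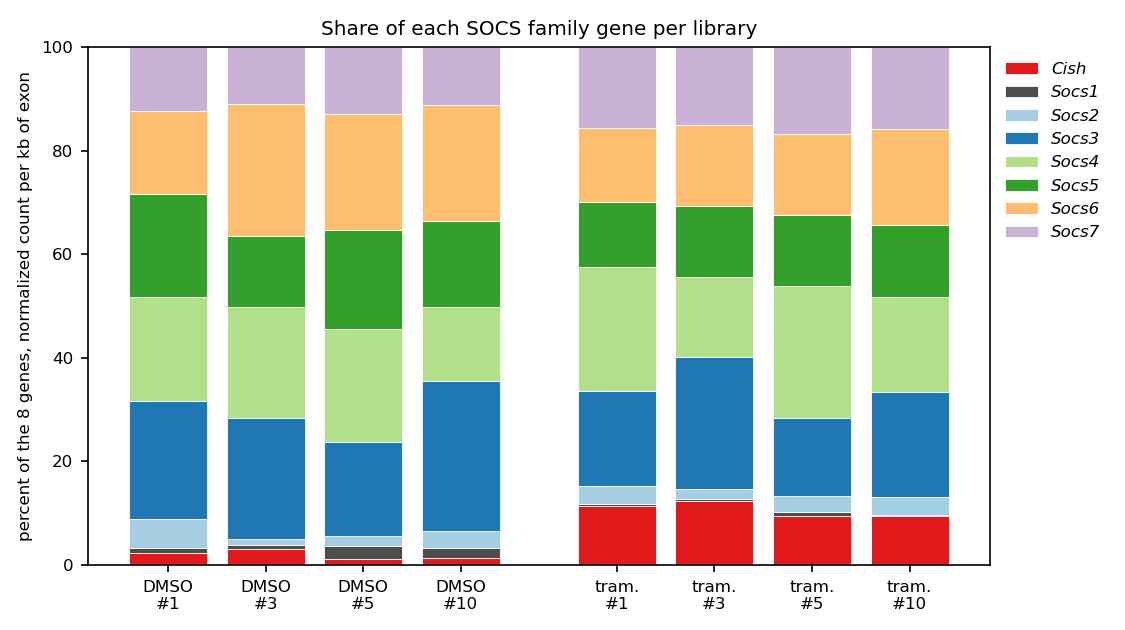
Share of each SOCS family gene in the summed normalized counts per kilobase of exon, as a percentage, for each of the 8 libraries. The share of Cish (red, at the bottom) was 1.13 to 3.06% with DMSO and 9.46 to 12.3% with trametinib, and Socs3, Socs4, Socs5, Socs6 and Socs7 made up most of the sum under each treatment.

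The spread between the lines, as an SD of log2 values, was smaller with trametinib than with DMSO for 7 of the 10 brakes and for 40.9% of all genes tested. For Socs5 it went from 0.27 to 0.051, for Socs2 from 1.00 to 0.46 and for Pias1 from 0.39 to 0.18. It went the other way for Socs1 (0.82 to 0.95), Socs4 (0.23 to 0.37) and Ptpn2 (0.23 to 0.30). With 4 lines in each group these SDs are a description without a test.

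The genes whose log2 values followed Cish most closely over the 8 libraries were Ypel3 (Pearson's r = 0.99), Foxn3 (r = 0.99) and Yif1b (r = 0.99), each higher with trametinib in the test. Socs3 was followed most closely by Crtc1 (r = 0.97), AC122539.3 (r = 0.96) and Hacd1 (r = 0.95), and Socs1 by Ssh2 (r = 0.95), Snord73a (r = 0.95) and Gm13470 (r = 0.95). For Socs2, whose changes differed between lines, the closest genes were Lrrc66 (r = 0.93), Bhlhe41 (r = 0.93) and Trim54 (r = 0.92). These are the 3 highest values among all genes tested for each of these genes, over libraries that share 2 treatments and 4 lines, and they carry no test.

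The partners that let a SOCS box work as a ubiquitin ligase were followed as a list of 7 genes, of which 0 were called higher and 4 lower (27.3% and 25.6% of all genes), with a median log2 fold change of -0.31. Rnf7, the RING subunit of the cullin 5 ligase, fell by 0.65 on the log2 scale (adjusted p = 0.0025 in limma), Cul5 by 0.34 (adjusted p = 0.032) and the elongin gene Eloc by 0.32 (adjusted p = 0.019). This count depended on the scaling, since 1 of the 7 was lower with libraries rescaled to equal totals or quantile normalized, and 1 without the block. Leaving out line #1 or #5 gave 2, and leaving out line #10 gave 1. Cul5 did not pass without line #1, #5 or #10 (adjusted p up to 0.11 in limma), nor Eloc without line #1 or #10 (up to 0.080). Of 11 other cytokine brakes, 2 were called higher and 2 lower, against the 27.3% and 25.6% of all genes. The higher count was 1 without line #1 or without the block and 4 without line #3 or with equal totals. The lower count was 1 with any of the 4 lines left out, with equal totals or without the block. It was also 1 with a pseudocount of 0.1, with no filter or with eBayes without trend. Usp18, which shuts off the type I interferon receptor, was at 3.96 to 8.21 normalized counts with DMSO and 9.89 to 48.6 with trametinib. It passed the filter only through the trametinib libraries, so no fold is given, and with a filter at a mean of 50 the higher count was 1. Cblb, a ubiquitin ligase, rose by 0.84 on that scale (adjusted p = 0.0043). Sh2b3, which encodes the JAK2 inhibitor LNK, went from 1398 ± 205 to 709 ± 110 normalized counts, a change of -0.98 on the log2 scale (adjusted p = 0.00069 in limma). The SUMO ligase Pias3, named after its values were seen, was the other lower gene, at -0.29 (adjusted p = 0.049 in limma), and did not pass with any of the 4 lines left out (up to 0.18).

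The genes of the signaling proteins on which these brakes act were called higher more often than lower. Of 10 JAK and STAT genes tested, 9 were called higher and 0 lower, where 27.3% and 25.6% of all genes were, and 5 were higher without the block. On the log2 scale, the STAT5 gene Stat5a rose by 1.53 (adjusted p = 0.0012 in limma), Stat2 by 1.45 (adjusted p = 0.00023) and Stat3 by 1.12 (adjusted p = 0.00049). Among 19 receptors and receptor adaptors tested, 11 were called higher and 1 lower (27.3% and 25.6% of all genes). The higher count was 7 without the block, and the lower count was 2 without line #3 or with each library centred on its median. Kit, the stem cell factor receptor, had 14.8, 223, 24.1 and 1.41 normalized counts under DMSO (lines #1, #3, #5 and #10), which became 87.2, 1479, 131 and 75.2 under trametinib. It rose in 4 of 4 lines, but its DMSO value in line #10 lies under the level of 3 reads, so no fold is given. The oncostatin M receptor gene Osmr had a log2 fold change of 2.65, with single lines from 1.27 to 4.52, and of 2.02 without line #3 (adjusted p = 0.0043 in limma). The receptor gene Il4ra was the lower one, at -1.73 (adjusted p = 9.7e-05 in limma). Il6st, the gp130 chain bound by SOCS3 and named after its values were seen, rose by 1.40 on the log2 scale (adjusted p = 0.00015 in limma).

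Of 18 genes of ligands for such receptors, 8 passed the filter, with 1 called higher and 2 lower (27.3% and 25.6% of all genes). Without line #3 or with equal totals 2 were higher, and without line #1 or without the block 1 was lower. Csf2, the gene of GM-CSF, fell from 133 ± 69.8 to 10.4 ± 5.73 normalized counts (SD, n = 4 lines; adjusted p = 0.00026 in limma), with line #3 at 1.89, under the level of 3 reads, with trametinib. Lif fell by 0.72 on the log2 scale (adjusted p = 0.011), a call lost without line #1 (adjusted p = 0.054 in limma). Clcf1, a ligand of the gp130 family, rose by 0.65 (adjusted p = 0.0053). The interferon genes Ifnb1 and Ifng were listed at 0 in each of the 8 libraries.

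Other known targets of the STATs, to which Cish, Socs1, Socs2 and Socs3 themselves belong, were followed as lists for STAT3 and STAT5. Of 11 STAT3 targets tested, 6 were called higher and 2 lower (27.3% and 25.6% of all genes), led by Lbp with a log2 fold change of 3.11 (126 ± 75.3 to 1072 ± 536 normalized counts, adjusted p = 2e-04 in limma). Hp and Lcn2 passed the filter only through their trametinib libraries. Hp was at 0 to 6.65 normalized counts with DMSO and 3.49 to 37.6 with trametinib, and Lcn2 at 0 to 8.68 and 6.71 to 43.6. With DMSO some of these values lie at or under the level of 3 reads, so no fold is given, and with a filter at a mean of 50 the count of STAT3 targets called higher was 4. Of 6 STAT5 targets tested, 0 were called higher and 2 lower (27.3% and 25.6% of all genes), namely the cyclin gene Ccnd1 at -2.03 (adjusted p = 0.00033 in limma) and Id1 at -0.57 (adjusted p = 0.0036). Cish and Socs2 were not counted in this list, nor Socs3 in the other. Counts of 0 in these lists, the JAK and STAT genes and the ligase partners were also 0 at an unadjusted p under 0.05 in limma. Without the block, 2 STAT3 targets were called higher and 1 lower. The higher count was 3 without line #1 or #5 or with eBayes without trend. For the STAT5 targets, 1 was higher and 3 lower without line #3, and 1 was lower without the block.

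**Figure D4:**
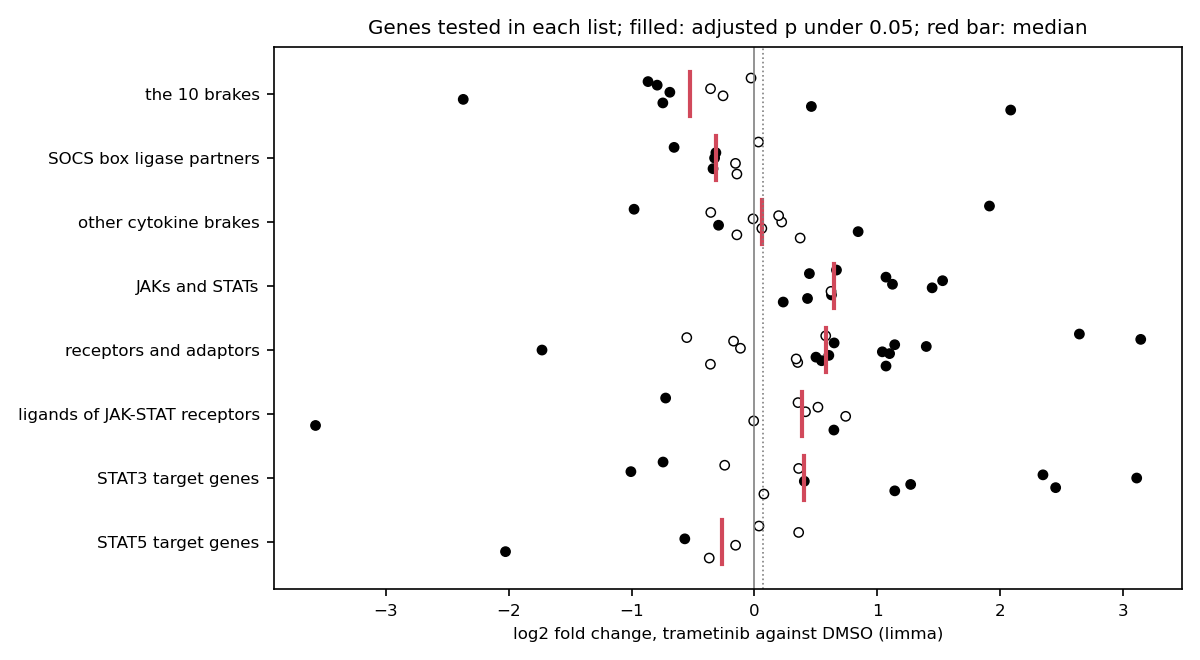
Log2 fold change with trametinib of each gene tested in the 10 brakes and in 7 lists of related genes (filled circles at an adjusted p under 0.05 in limma, red bars at the median, dotted line at the median of all genes tested, 0.07). The median lies at -0.52 for the brakes, at -0.31 for the ligase partners and at 0.65 for JAKs and STATs.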

How the data were processed

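RNA was sequenced from 4 murine PDAC lines with DMSO or trametinib, 1 library each (stranded mRNA libraries from 100 ng RNA). The authors deposited a table of normalized counts, a signal scaled between libraries and not per length. The submitters' processing notes name CASAVA 2.17, Salmon 0.12, DESeq2 1.18 and mm10, without saying which step each served, and the annotation is not given in the sources used here. Reads per library were estimated from the step of low values, of which 42.9 to 64.3% lay within 0.02 of a whole multiple, so whole reads were not recovered and count tests were not used.

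Values were transformed as log2(value + 1) and fitted across all genes with limma 3.58.1 in R 4.3.3 (lmFit, eBayes with trend, line as a block, mean of at least 10), two-sided, with Benjamini-Hochberg adjustment and a threshold of 0.05. Sample titles give both libraries of a line the same number, so they are paired by cell line. Their deviations from the treatment means correlated at 0.66 on average (0.63 to 0.72). The fit was tested on simulated data with far fewer changed genes than were called here, so its share of missed changes does not carry over. Some changes of each simulated size were not called there, and a gene that does not pass may still have changed. The 10 genes and the lists were chosen with earlier results of these data known. An allele of the mice and a list of genes are not reported here. Genes named from the lists are the 3 largest called changes of each. Gene positions and exon lengths come from GENCODE M21 (GRCm38) by symbol, and promoters from RefSeq, without those of chromosome 18. Other tools were Python 3.11.15, numpy 2.4.6, pandas 2.3.3 and matplotlib 3.10.9. Alternatives were pseudocounts of 0.1 and 5, equal totals, quantile normalization, median centring, no filter, a mean of at least 50, no block, eBayes without trend or with robust estimation, and leaving out each line. The longest transcript in place of all exons, and only the bases before the start, were tried for levels and motifs.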

Additional observations from a re-analysis of the deposited data

Results flagged for a closer look

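In 30 groups of 4 values (DMSO, trametinib and log2 fold change of each of the 10 genes), a value far from the other 3 was found 3 times, where chance gives about 1.5. With DMSO, Socs4 stood at 1568 normalized counts in line #10 and at 2151 to 2185 in the other lines. The log2 fold change of Socs4 was -0.91 in line #3 and -0.21 to -0.12 in the others. For Ptpn2 it was -0.88 in line #3 and -0.72 to -0.69 in the others.

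In a pair of genes the lines went opposite ways. For Socs2 the log2 fold change ran from -1.11 in line #1 to 0.34 in line #5, and for Socs7 from -0.12 in line #1 to 0.035 in line #3. With 1 library per line and treatment, these differences between lines were not tested.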

How the results depend on the processing

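Of 139 results for single genes under 14 alternatives, 130 kept their direction and their side of the threshold. Cish, Socs3, Socs5, Socs6 and Ptpn2 kept their calls under all 14, and Socs1 under the 13 that kept it above the filter, since a mean of at least 50 leaves it untested. The count of brakes called higher was 1 instead of 2 without the replicate block (no pairing by line) and with eBayes without trend (Pias1, adjusted p = 0.13 and 0.051 in limma), and 1 to 2 with a line left out. The count called lower was 5 to 5 with a line left out. Socs7 turned from -0.03 to 0.10 with equal totals, where the median of all genes was 0.20, and to 0.0088 with quantile normalization. With a line left out, Socs7 was between -0.049 and 0.0026 (without line #1) and Socs2 between -0.46 and 0.027 (without line #1). Of 196 counts for the lists, 37 moved by over 1.5 times, and the cause was not tested. The Cish promoter held 0 STAT motifs before the start. The Socs1 values with trametinib rest on about 4 to 25 reads. The block changed no other call among the 10 genes.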
